A study of Mus musculus with 9 samples.

Results

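Afp, Gpc3, Golm1, Mdk, Tff3, Ly6d and Lin28b encode products that are used or studied as oncofetal or serum markers of hepatocellular carcinoma (HCC). These 7 genes were taken from the 19938 genes measured by a probe set that names a single gene, and each of them was read by 1 probe set. Oncofetal genes are active in fetal liver, are silenced around birth and can be switched on again in liver tumours. Several of their products leave the cell and can be measured in blood.

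RNA of 9 liver samples was hybridised to Affymetrix Mouse Gene 1.0 ST arrays, 1 array per sample. The 5 HCC samples came from bitransgenic AFP-Cre/Rosa26-lsl-NICD mice (AFP-NICD), in which Cre recombinase under an Afp promoter removes a stop cassette and so switches on the intracellular domain of the Notch receptor (NICD). The 4 control samples were healthy livers of monotransgenic Rosa26-lsl-NICD mice, which carry the same silent allele without Cre. All mice had a hybrid 129 x C57BL/6 background and were 6 to 12 months old. NICD is switched on in cells in which the Afp promoter is active or was active in a precursor, so the tumours model Notch activity in that lineage. Controls were matched for age, and the labels do not state the sex of the mice. It is also not stated whether each array came from a different mouse, so a p-value here reflects how far the arrays differ, which may be technical.

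Values are log2 of the deposited intensity, which was summarised by RMA (robust multi-array average, which makes arrays comparable by giving them the same distribution of probe signals). Median intensity was between 91.5 and 101.3 linear units on the 9 arrays. In the limma comparison over all genes, 171 genes (0.858%) were higher and 32 (0.16%) lower in HCC at an adjusted p below 0.05, and these counts ranged over 10 to 631 and 0 to 556 when 1 array was left out, with the most without HCC array 5. Xist, transcribed from an inactive X chromosome, was high (10.68 to 11.76) on HCC arrays 1 and 2 and control arrays 1, 2 and 3. It was low (4.83 to 5.10) on HCC arrays 3, 4 and 5 and control array 4. Bulk tissue was measured, so fewer cells of a type and less RNA per cell cannot be told apart.

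A pair of upstream sequences is shown because the first belongs to the gene whose promoter drove Cre and the second to the one of the 7 genes with the largest gap between a single tumour and the next. Each is the stretch of 250 bases before the RefSeq start, on GRCm38.p6, written 5′ to 3′ on the gene's strand. RefSeq upstream sequences were matched for 4 of the 7 genes. In the Afp sequence (chr5:90490464-90490713, plus strand) capitals mark GTTAAT and GTTAAC, letters of the hepatocyte factor HNF1, then TGTTTGC, letters of the FoxA factors, and TATAAA, letters of a TATA box. Whether TATAAA works as a TATA box at this place was not tested.
Afp: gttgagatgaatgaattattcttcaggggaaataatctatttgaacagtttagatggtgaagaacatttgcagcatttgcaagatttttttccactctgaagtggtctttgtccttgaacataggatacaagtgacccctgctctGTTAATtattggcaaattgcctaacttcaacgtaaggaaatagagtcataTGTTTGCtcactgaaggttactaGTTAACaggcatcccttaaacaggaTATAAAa
In the Gpc3 sequence (chrX:52613975-52614224, minus strand) capitals mark CCGCCC, the reverse complement of the GC box GGGCGG that Sp factors bind.
Gpc3: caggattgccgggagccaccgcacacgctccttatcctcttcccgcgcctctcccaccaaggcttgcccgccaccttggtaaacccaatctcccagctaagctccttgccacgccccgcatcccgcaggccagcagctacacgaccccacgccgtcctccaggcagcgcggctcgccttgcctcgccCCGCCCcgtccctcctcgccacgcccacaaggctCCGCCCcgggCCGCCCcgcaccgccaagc

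The Afp sequence held 36.0% G and C and the Gpc3 sequence 71.6%, beside a median of 52.4% over 32851 such windows. In the Afp window, GTTAAT began 105 bases, TGTTTGC 55 bases, GTTAAC 32 bases and TATAAA 7 bases before the annotated start. Searched on both strands, GTTAAT was present in 6.43% of all windows, GTTAAC (its own reverse complement) in 2.56%, TGTTTGC in 4.3%, TATAAA in 12.4% and GGGCGG in 32.7%. The letters TGGGAA, the core bound by the Notch partner Rbpj, were in none of the 4 windows (Afp, Gpc3, Golm1 and Lin28b) and in 21.6% of all windows. These matches describe letters only, and the labels do not say which of these bases the Cre transgene carried.

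None of the 7 genes passed the test over all genes, beside 1.02% of all genes. At an unadjusted p below 0.05, 1 of 7 (Mdk, which was higher) passed in limma, beside 20.4% of all genes in either direction and 10.5% in the higher direction. By exact permutation of the arrays 1 of 7 was below 0.05, again Mdk. All 7 mean changes were positive, beside 42.5% of all genes. The 7 genes were chosen with earlier results of these data known, so these shares cannot be read as an excess. Without HCC array 1 the sign turned for Afp, and the change was 0.16 for Gpc3 and 0.04 for Tff3. The mean log2 change was at least 1 for 2 of 7, Golm1 and Ly6d, beside 1.95% of all genes. No member had all tumours below all controls, beside 3.86% of all genes.

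The markers were uneven between tumours. HCC array 1 had the highest value of all 9 arrays for Afp, Gpc3, Mdk and Tff3. HCC array 2 had the highest value for Golm1 and Ly6d, and HCC array 4 for Lin28b. On HCC array 1, 6 of 7 markers were above all controls (28.4% of all genes), on HCC array 2, 4 of 7 (25.6%), and on HCC array 3, 1 of 7 (24.9%). On HCC array 4, 5 of 7 were above all controls (26.3% of all genes), and on HCC array 5, 2 of 7 (19.4%). An excess of at least 1 log2 unit over the highest control was measured for 4 of 7 genes on HCC array 1 (3.36% of all genes) and for 2 of 7 on HCC array 2 (2.41% of all genes). On HCC arrays 3, 4 and 5 it was measured for 0 of 7 genes, beside 1.29%, 1.66% and 0.456% of all genes. In at least 1 tumour 5 of the 7 genes had that excess, beside 5.59% of all genes, and these genes were selected with earlier results in view.

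**Figure D1:**
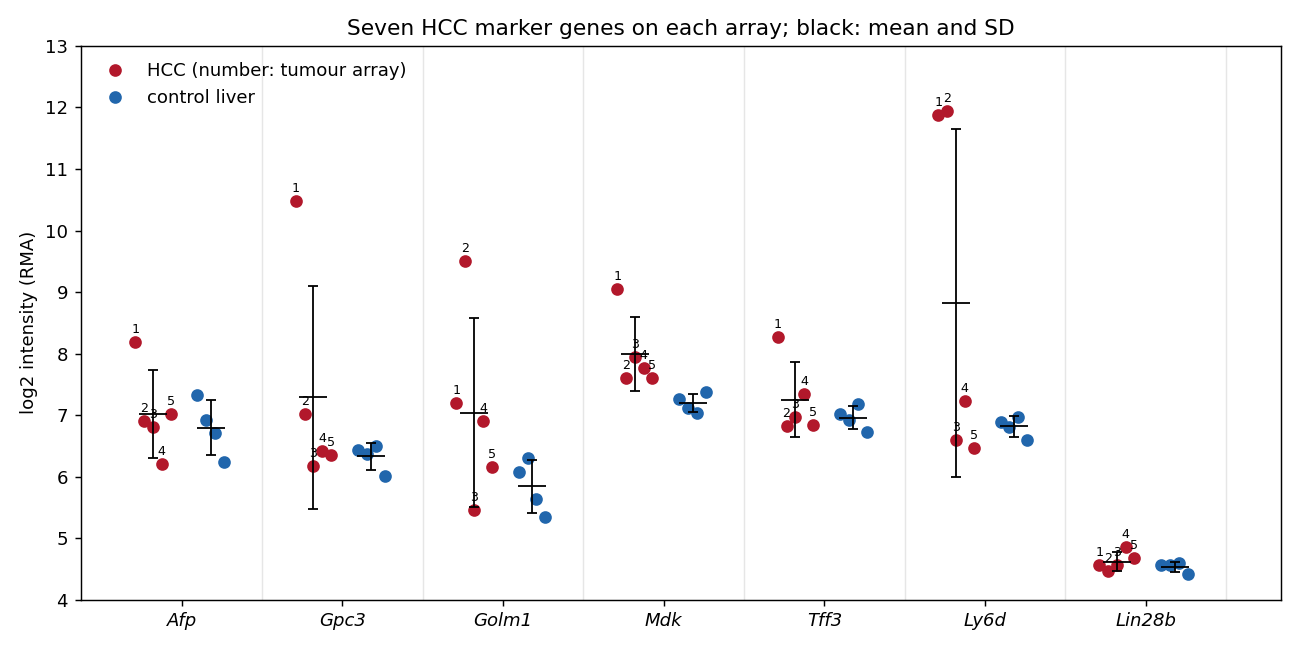
Log2 intensity of the 7 marker genes on 5 HCC arrays (red, numbered) and 4 control liver arrays (blue), with black marks for the mean and SD of each group. Gpc3 is high on HCC array 1, Golm1 on HCC array 2 and Ly6d on HCC arrays 1 and 2, while Mdk is the gene whose groups do not overlap.

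Afp encodes alpha-fetoprotein, the main plasma protein of the fetus and the classical blood marker of HCC. Afp measured 8.18, 6.90, 6.80, 6.21 and 7.01 on HCC arrays 1 to 5, against 7.32, 6.92, 6.71 and 6.24 on control arrays 1 to 4. HCC array 1 was the highest and lay 1.82-fold above the highest control, HCC array 4 was the lowest of all 9, and the other 3 tumours lay within the control range. The log2 change of Afp was 0.22 (SE 0.36, 95% interval -0.60 to 1.05, limma adjusted p = 0.761; exact permutation p = 0.627). Without HCC array 1 it was -0.07 (limma adjusted p = 0.912). A difference between the groups was not detectable for this gene, whose promoter drove Cre, and the interval reaches above a doubling on the linear scale.

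The genes beside Afp belong to the albumin family. Afm was named as the largest fall of its list, whereas Alb and Albfm1 were singled out after their values were seen. Alb, the main plasma protein of the adult, measured 13.02, 13.49, 13.15, 13.30 and 13.56 in HCC, against 13.66, 13.55, 13.47 and 13.51 in control liver (log2 change -0.24, limma adjusted p = 0.277). Afm, encoding afamin, averaged 10.35 ± 0.43 in HCC and 11.26 ± 0.20 in control liver (SD, n = 5 and 4), a log2 change of -0.91 with a limma adjusted p of 0.077. Afm passed with array weights (log2 change -0.97, limma adjusted p = 0.039) and with the replicate block (-1.08, 0.0444). Its adjusted p was between 0.00951 and 0.2 when 1 array was left out. Albfm1, a further albumin family member, fell to 6.58, 7.07, 7.46, 6.92 and 7.58 in HCC, against 8.31, 7.96, 8.63 and 8.37 in control liver (log2 change -1.20, limma adjusted p = 0.046). This call was lost when any 1 array other than HCC array 5 was left out, with adjusted p between 0.0132 and 0.141 over these comparisons.

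Zhx2 and Zbtb20 encode repressors that silence Afp in mouse liver after birth. Zhx2 averaged 8.69 ± 0.13 in HCC and 8.30 ± 0.19 in control liver (SD, n = 5 and 4; log2 change 0.39, limma adjusted p = 0.110). Zbtb20 averaged 11.16 ± 0.21 in HCC and 10.98 ± 0.41 in control liver (log2 change 0.18, adjusted p = 0.615). Neither repressor passed in the main fit, and Zhx2 passed with array weights (log2 change 0.46, limma adjusted p = 0.0424). The highest Zhx2 value was on HCC array 1 (8.82), where Afp was highest. Zhx2 was 8.80 on HCC array 3, where Afp was within the control range. A link between Zhx2 and Afp was not tested. Of 20 measured genes in the list of albumin family members and Afp regulators, 0 were called (Albfm1 is not in that list; 6 at an unadjusted p below 0.05 in limma, beside 20.4% of all genes), with a median log2 change of -0.13 beside -0.033 over all genes. The largest rise in that list was of Foxa3, a liver FoxA factor (10.02 ± 0.10 in HCC and 9.50 ± 0.53 in control liver, limma adjusted p = 0.222).

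Gpc3 encodes glypican 3, a heparan sulphate proteoglycan held on the cell surface by a lipid anchor, which is used as a tissue marker of HCC and as a target of therapy. Gpc3 measured 10.48, 7.02, 6.18, 6.42 and 6.35 on HCC arrays 1 to 5, against 6.44, 6.36, 6.50 and 6.01 on control arrays 1 to 4. HCC array 1 was 15.8-fold above the highest control and HCC array 2 was 1.44-fold above it, whereas HCC arrays 3, 4 and 5 lay within the control range. The log2 change was 0.96 (SE 0.81, 95% interval -0.85 to 2.78, limma adjusted p = 0.524; exact permutation p = 0.413), and 0.16 without HCC array 1 (adjusted p = 0.685). The spread of Gpc3 was 8.32 times as large in HCC as in control liver, beside a median ratio of 1.45 over all genes.

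Sulf2 was the 1 gene of the heparan sulphate list that passed the test over all genes. Its product removes sulphate groups from heparan sulphate chains outside the cell and is reported to raise glypican 3 in human HCC cells. Sulf2 rose to 9.14, 8.88, 9.03, 8.83 and 8.88 in HCC, against 7.55, 7.74, 7.40 and 7.67 in control liver. All tumours lay above all controls, by 2.57-fold between the means (log2 change 1.36, SE 0.10, limma adjusted p = 0.0015). The adjusted p stayed between 0.00105 and 0.0173 when any 1 array was left out. Among the 21 measured genes of glypicans, syndecans and heparan sulphate enzymes this was 1 higher and 0 lower, beside 0.858% and 0.16% of all genes. Their median log2 change was -0.05, and 7 were at an unadjusted p below 0.05 in limma, beside 20.4% of all genes. In 2 genes all tumours lay above all controls and in 1 below, beside 5.63% and 3.86% of all genes. Gpc4, the glypican gene next to Gpc3, measured 8.40, 8.93, 8.98, 7.12 and 9.03 in HCC, against 8.98, 9.22, 8.98 and 9.18 in control liver (log2 change -0.59, adjusted p = 0.382). The low value of Gpc4 was on HCC array 4 and not on the array with high Gpc3.

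Golm1 encodes a Golgi membrane protein (GP73) that is cut by furin-like proteases and released, and that is raised in the serum of people with liver disease and HCC. Golm1 measured 7.20, 9.50, 5.45, 6.90 and 6.16 on HCC arrays 1 to 5, against 6.08, 6.31, 5.63 and 5.34 on control arrays 1 to 4. HCC array 2 was 9.07-fold above the highest control, HCC array 1 was 1.85-fold and HCC array 4 was 1.50-fold above it, and the other 2 tumours lay within the control range. The log2 change was 1.20 (SE 0.70, 95% interval -0.38 to 2.77, limma adjusted p = 0.359; exact permutation p = 0.167). Without HCC array 2 it was 0.58 (adjusted p = 0.429).

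Golm2, formerly Casc4, is the closest relative of Golm1. Golm2 measured 9.40, 8.50, 8.54, 7.98 and 7.84 in HCC, against 6.99, 7.31, 7.28 and 6.91 in control liver. All 5 tumours lay above all controls, but the change did not pass (log2 change 1.33, SE 0.29, limma adjusted p = 0.064), and the adjusted p was between 0.0227 and 0.172 when 1 array was left out. None of the 24 measured genes of Golgi structure and glycosylation passed (5 at an unadjusted p below 0.05 in limma, beside 20.4% of all genes). Their median log2 change was 0.01. The largest rise among them was of Mgat4a, which adds branches to N-glycans, with 7.75 ± 0.99 in HCC and 5.77 ± 0.62 in control liver (SD, n = 5 and 4; limma adjusted p = 0.0915). The largest fall was of B4galt1, which adds galactose to glycans, with a log2 change of -0.32 (adjusted p = 0.527). Ntrk2, encoding the neurotrophin receptor TrkB, lies 3 protein-coding genes from Golm1 and was examined after its values were seen. Ntrk2 rose to 9.08, 7.49, 8.52, 8.77 and 8.32 in HCC, against 7.13, 6.21, 5.84 and 6.00 in control liver (log2 change 2.14, limma adjusted p = 0.0361). Its call was lost when any 1 array other than HCC arrays 2 and 5 was left out (adjusted p between 0.0213 and 0.131).

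Mdk encodes midkine, a secreted heparin-binding growth factor of embryonic tissue that is measured in the blood of people with HCC. Mdk measured 9.05, 7.61, 7.94, 7.76 and 7.61 on HCC arrays 1 to 5, against 7.26, 7.11, 7.04 and 7.37 on control arrays 1 to 4. All 5 tumours lay above all 4 controls, as in 5.63% of all genes, and the excess over the highest control was between 1.19-fold and 3.22-fold. The log2 change was 0.80 (SE 0.28, 95% interval 0.17 to 1.43, unadjusted p = 0.018), which did not pass over all genes (limma adjusted p = 0.165). The exact permutation p of Mdk was 0.0238, where the smallest p of the design is 0.00794, and it was 0.0714 without control array 1, 2 or 3. Without HCC array 1 the log2 change was 0.53 and the limma adjusted p was 0.0734.

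Of 16 measured genes of the midkine family and its receptors, 0 passed in limma (4 at an unadjusted p below 0.05, beside 20.4% of all genes). Their median log2 change was -0.03. Ptn, encoding pleiotrophin, the other member of the midkine family, averaged 6.22 ± 0.40 in HCC and 5.94 ± 0.21 in control liver (SD, n = 5 and 4; limma adjusted p = 0.452). The integrin subunit gene Itga6 measured 9.22, 8.57, 7.50, 8.61 and 7.21 in HCC, against 7.14, 7.29, 7.36 and 6.73 in control liver (log2 change 1.09, adjusted p = 0.172), the largest rise of the list. The largest fall was of Nrp1, encoding the coreceptor neuropilin 1 (log2 change -0.36, adjusted p = 0.343). The receptor gene Notch2, which encodes a Notch receptor that midkine has been reported to bind, was also the gene most like Mdk in its pattern. Notch2 measured 8.90, 8.07, 8.26, 8.07 and 7.91 in HCC, against 7.71, 7.72, 7.56 and 7.77 in control liver (log2 change 0.55, limma adjusted p = 0.151).

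**Figure D2:**
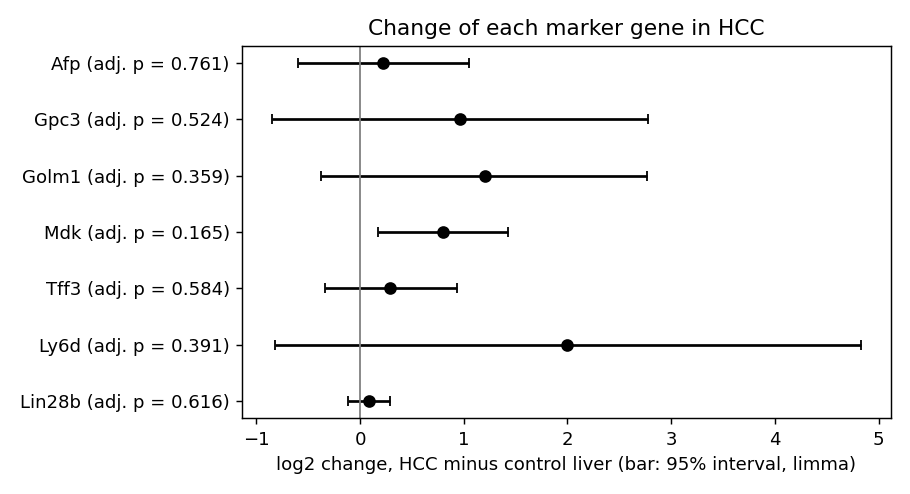
Log2 change of each marker gene, HCC minus control liver, with its 95% interval from limma and its adjusted p over all genes. The interval of Mdk, 0.17 to 1.43, is the one that leaves out 0, and its adjusted p is 0.165.

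Tff3 encodes a trefoil peptide that goblet cells secrete with mucus and that bile ducts and some tumours also make. Tff3 measured 8.27, 6.83, 6.97, 7.35 and 6.84 on HCC arrays 1 to 5, against 7.01, 6.92, 7.18 and 6.73 on control arrays 1 to 4. HCC array 1 was 2.12-fold above the highest control and HCC array 4 was 1.13-fold above it, with the other 3 tumours in the control range. The log2 change of Tff3 was 0.29 (SE 0.28, 95% interval -0.34 to 0.93, limma adjusted p = 0.584; exact permutation p = 0.484), and 0.04 without HCC array 1 (adjusted p = 0.913).

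Tff2 and Tff1 lie next to Tff3 and encode trefoil peptides of the stomach. Tff2 measured 7.15 on HCC array 1 and 6.83 on each of the other tumours, against 6.87, 6.46, 6.83 and 6.83 on the control arrays. Its highest value, on HCC array 1, was only 1.22-fold above the highest control (limma adjusted p = 0.467). Tff1 averaged 7.27 ± 0.11 in HCC and 7.52 ± 0.12 in control liver (SD, n = 5 and 4; limma adjusted p = 0.153). Of 20 measured genes of trefoil peptides, mucins and mucous secretion, 0 passed in limma (2 at an unadjusted p below 0.05, beside 20.4% of all genes). Their median log2 change was -0.03. Muc1, a membrane mucin of epithelia, measured 5.39, 8.28, 5.53, 5.48 and 5.81 in HCC, against 5.30, 5.16, 5.47 and 5.36 in control liver. It was high on HCC array 2, which did not have high Tff3. Of the goblet cell markers, Muc2 lay at 5.79 to 5.86 in HCC, against 5.86 to 5.88 in control liver, and Agr2 at 5.64 to 5.98 in HCC, against 5.69 to 5.75 in control liver. Vil1, an intestinal marker of the same list, measured 7.32, 9.45, 7.87, 5.84 and 5.73 in HCC, against 5.63 to 5.81 in control liver. Its log2 change was 1.52 (limma adjusted p = 0.251). Over the whole list 2 changes were positive and 7 negative. The 9 goblet and intestinal markers summed to 3317 to 8860 in HCC, against 8421 to 9276 in control liver, but Fabp2, which liver also expresses, made up 74.5% to 92.4% of the sum in HCC and 89.9% to 92.6% in control liver.

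Ly6d encodes a small lipid-anchored surface protein of the Ly6 family, known from early B cells and stratified epithelia. Ly6d measured 11.87, 11.94, 6.60, 7.23 and 6.46 on HCC arrays 1 to 5, against 6.89, 6.81, 6.97 and 6.59 on control arrays 1 to 4. HCC arrays 1 and 2 were 29.8-fold and 31.4-fold above the highest control, HCC array 4 was 1.20-fold above it, and HCC array 5 was the lowest of all 9. The log2 change was 2.00 (SE 1.25, 95% interval -0.82 to 4.83, limma adjusted p = 0.391; exact permutation p = 0.341). Without HCC array 1 it was 1.24 (adjusted p = 0.591), and without HCC array 2 it was 1.22 (adjusted p = 0.561).

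Both tumours with high Ly6d were the tumours with high Xist. Among arrays with high Xist, Ly6d averaged 11.90 in 2 tumours and 6.89 in 3 controls, a difference of 5.02. Among arrays with low Xist it averaged 6.76 in 3 tumours and was 6.59 in 1 control, a difference of 0.17. The same split gave differences of 2.32 and 0.30 for Gpc3, 2.34 and 0.82 for Golm1, 1.20 and 0.40 for Mdk, 0.51 and 0.33 for Tff3, and 0.56 and 0.44 for Afp. Lin28b went the other way, with -0.06 among arrays with high Xist and 0.27 among arrays with low Xist. The difference between these levels of Xist was not tested. A limma fit over all 9 arrays took the log2 intensity of Xist, not the high or low class, as a term. It gave a log2 change of 3.09 for Ly6d (adjusted p = 0.105), 1.51 for Gpc3 (0.260), 1.73 for Golm1 (0.142) and 0.89 for Mdk (0.150).

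Markers of other cells were read beside Ly6d. The summed intensity of 9 B cell markers was 660 and 875 on HCC arrays 1 and 2, against 731 to 791 on the control arrays. Among 10 squamous and urothelial markers, the basal keratin Krt5 measured 5.57 to 6.00 in HCC, against 5.75 to 5.99 in control liver, and Trp63, a basal cell factor, 6.08 to 6.33 in HCC, against 6.21 to 6.33 in control liver. Upk3a, a urothelial plaque protein, measured 9.67, 5.95, 10.38, 6.40 and 6.44 on HCC arrays 1 to 5, against 6.20 to 6.46 in control liver. It was high on HCC arrays 1 and 3, of which HCC array 3 had low Ly6d, and low on HCC array 2, which had high Ly6d. None of these B cell or squamous markers passed in limma. Their part in the Ly6d values was not tested.

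Of 26 measured genes of the Ly6 and uPAR family 0 passed in limma (5 at an unadjusted p below 0.05, beside 20.4% of all genes). Their median log2 change was -0.03, and Ly6 genes are similar copies whose probe sets can share signal. Lynx1, which lies next to Ly6d and encodes a modulator of acetylcholine receptors, had the largest rise in mean. Lynx1 measured 7.91, 7.69, 6.55, 6.66 and 6.71 in HCC, against 6.23, 6.30, 6.25 and 6.39 in control liver. All 5 tumours lay above all controls, and HCC arrays 1 and 2 were again the highest (log2 change 0.81, limma adjusted p = 0.171). On the other side of Ly6d, Ly6g6g had a log2 change of -0.22 (adjusted p = 0.151), and the next gene, Ly6k, one of 0.15 (adjusted p = 0.700). Cd59b, a complement inhibitor of the same family, had the largest fall in mean (6.35 ± 0.65 in HCC and 7.34 ± 0.12 in control liver, adjusted p = 0.124).

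**Figure D3:**
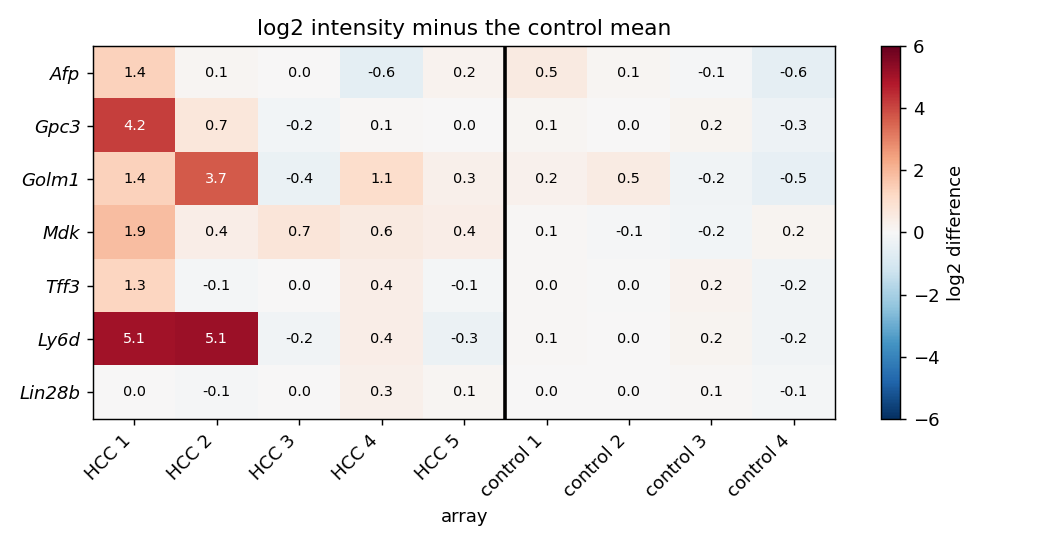
Log2 intensity of the 7 genes minus the control mean of each gene, by array (HCC left, control liver right), where red is higher and blue lower. HCC array 1 departs in 6 genes and HCC array 2 mainly in Golm1 and Ly6d, while HCC arrays 3 and 5 stay close to the controls except in Mdk.

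Lin28b encodes an RNA-binding protein of embryonic cells that blocks the maturation of let-7 microRNAs, and let-7 in turn represses growth and fetal genes such as Igf2bp3 and Hmga2. The mature let-7 sequences are shown because they are the products of the precursors that Lin28b binds, with the seed (bases 2 to 8) in capitals taken from RefSeq on GRCm38.p6. The seed GAGGUAG was shared by 10 of 11 mature let-7 and miR-98 sequences in that table.
let-7a-5p: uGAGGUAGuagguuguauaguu
let-7d-5p: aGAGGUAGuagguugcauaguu
let-7g-5p: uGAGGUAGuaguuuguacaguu
miR-98-5p: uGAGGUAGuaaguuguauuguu

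Lin28b measured 4.56, 4.46, 4.56, 4.85 and 4.67 on HCC arrays 1 to 5, against 4.56, 4.56, 4.60 and 4.42 on control arrays 1 to 4. HCC array 4 was 1.19-fold and HCC array 5 was 1.05-fold above the highest control, and the other 3 tumours lay within the control range. The log2 change was 0.09 (SE 0.09, 95% interval -0.12 to 0.29, limma adjusted p = 0.616; exact permutation p = 0.397). The upper bound of that interval corresponds to less than a doubling. No detection calls were used here, so the low intensity is not a statement that the transcript was absent. Lin28a, its paralog, averaged 6.63 ± 0.10 in HCC and 6.64 ± 0.16 in control liver (SD, n = 5 and 4; limma adjusted p = 0.966).

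The arrays also carry probe sets at 10 let-7 and miR-98 loci, which read RNA from the hairpin region and not the mature microRNA. These loci were added after their values were seen. The log2 change was negative at 9 loci and positive at 1, between -0.24 and 0.28, and 0 passed in limma, also at an unadjusted p below 0.05 (smallest adjusted p 0.435). Of 31 measured genes of the let-7 machinery and let-7 targets, 9 were at an unadjusted p below 0.05 in limma, beside 20.4% of all genes. Their median log2 change was 0.12. After adjustment 1 gene was higher and 0 lower, beside 0.858% and 0.16% of all genes. That gene was Drosha, the nuclease that cuts primary microRNAs, at 8.22, 8.11, 8.13, 7.86 and 7.85 in HCC, against 7.13, 7.58, 7.42 and 7.49 in control liver (log2 change 0.63, SE 0.12, limma adjusted p = 0.0482). Its call was lost when any 1 array other than HCC array 5 was left out (adjusted p between 0.0212 and 0.141), after subtraction of array medians (0.0503), with trended and robust variances (0.0526), with the replicate block (0.0736) and with the Xist covariate (0.0581). Igf2bp3, an oncofetal RNA-binding protein and let-7 target, measured 6.40, 8.06, 6.24, 7.19 and 6.14 in HCC, against 6.31, 6.01, 5.97 and 5.87 in control liver (log2 change 0.77, adjusted p = 0.279). Among these genes the largest rise was of Ccnd1, encoding cyclin D1 (log2 change 1.52, adjusted p = 0.0849), and the largest fall of Tut7, a uridylyl transferase of let-7 precursors (-0.32, adjusted p = 0.264). Igf2bp3 was highest on HCC array 2 (8.06), where Lin28b was lowest in HCC (4.46). It was next highest on HCC array 4 (7.19), where Lin28b was the highest of all arrays (4.85). A link between these genes was not tested.

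The genes most like each marker were ranked by Pearson's r over the 9 arrays, among genes whose range was at least 1 log2 unit. These values describe the arrays only, because a single high array can set r. Tceal5 (r = 0.991), Lgals2 (0.991) and Pcdhb14 (0.989) were most like Gpc3. Tceal5 measured 9.47 on HCC array 1, against 3.98 to 4.73 on the other 8 arrays. Fam110c (0.969), Syt14 (0.957) and Phlda2 (0.953) were most like Ly6d, with Phlda2, an imprinted growth gene, at 7.12 and 7.64 on HCC arrays 1 and 2. Notch2 (0.989), Ddah2 (0.987) and Slc39a6 (0.987) were most like Mdk. Aqp7 (0.982), Neu3 (0.970) and Ly6e (0.965) were most like Golm1, and Olfr954 (0.983), Cadm1 (0.979) and Dapl1 (0.961) were most like Tff3. Kidins220 (0.939), Ints6l (0.914) and Zfp410 (0.901) were most like Afp, and Ina (0.954), Olfr836 (0.951) and Olfr347 (0.930) were most like Lin28b.

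**Figure D4:**
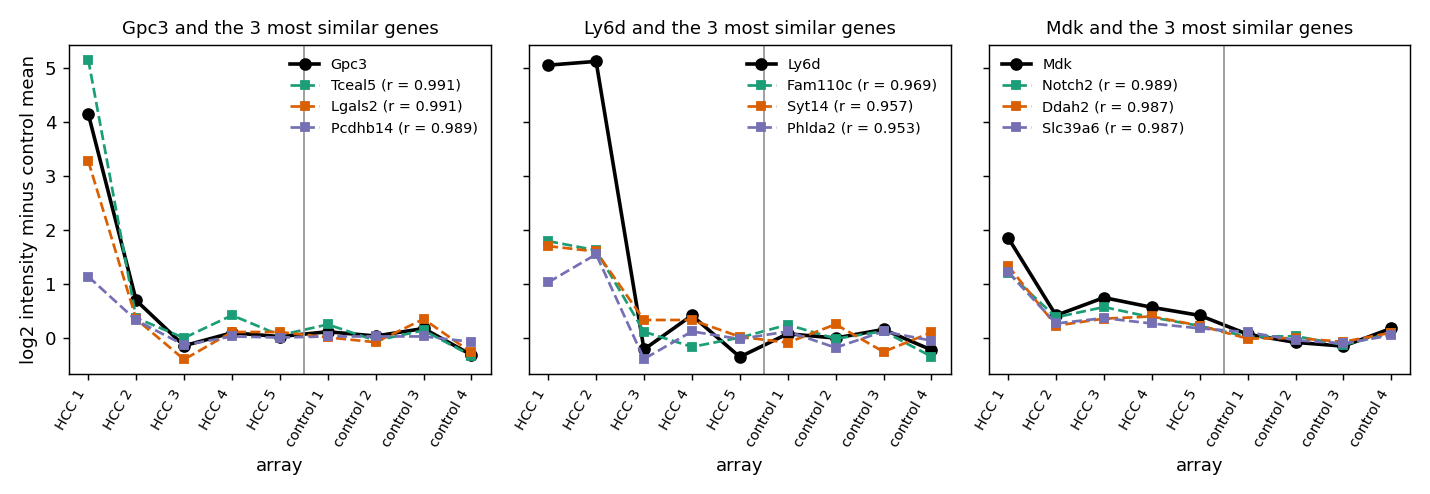
Log2 intensity minus the control mean on each of the 9 arrays (HCC left, control liver right) for Gpc3, Ly6d and Mdk (black) and the 3 genes with the highest Pearson's r to each (coloured). Gpc3 and its likes peak on HCC array 1, Ly6d and its likes on HCC arrays 1 and 2, and Mdk and its likes are highest on HCC array 1 with smaller excesses on the other tumours.

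Hepatocyte markers were present on every array, with Alb at 13.02 or above, and the cell type markers varied between tumours. The summed intensity of 9 hepatocyte markers was 50925 on HCC array 1, the lowest of 50925 to 74204 over the HCC arrays, against 73510 to 80574 on the control arrays. The sum of 8 cholangiocyte markers was 4462 on HCC array 1, the highest of 1839 to 4462, against 1035 to 1104 on the control arrays. Cftr, the bile duct chloride channel, made up 41.3% of it on HCC array 1, and Sox9 made up 56.8% on HCC array 4. The sum of 9 proliferation markers was 5405 on HCC array 1, within 1214 to 5405, against 726 to 840 on the control arrays. The sum of 10 endothelial markers was 1809 on HCC array 1, the lowest of 1809 to 3631, against 3115 to 3613 on the control arrays. These markers did not fall together, with 3 positive and 7 negative mean log2 changes. On HCC array 1 Clec4g measured 5.82, against 9.57 or more on the control arrays, and Stab2 6.14, against 7.98 to 8.86. Pecam1 measured 8.61 there, against 8.08 to 8.57 on the control arrays, and Cdh5 9.25, against 8.83 to 9.47. The sum of 10 Kupffer cell and macrophage markers was 14083 on HCC array 2, the highest of 3743 to 14083, against 3745 to 8814 on the control arrays. On HCC array 1 Lyz2 made up 53.1% of that sum, and Vsig4 measured 5.14 there, against 10.25 to 11.42 on the control arrays. Of these 10 markers 2 had a positive and 8 a negative mean log2 change. The sums of 10 stellate cell markers (2386 to 5005 in HCC and 4092 to 4950 in control liver, of which Dcn made up 33.4% to 67.5% in HCC and 61% to 69.2% in control liver), 10 T and NK cell markers (626 to 962 and 753 to 841) and 8 pancreatic acinar markers (638 to 771 and 632 to 772) overlapped. The part of these cells in the marker values was not tested.

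A list of other oncofetal genes of liver tumours was described by the same comparison. No fetal liver was measured, so fetal activity of the listed genes is not shown here. Epcam, Krt19 and Sox9 are also in the cholangiocyte list. Of 25 measured genes in that list, which was drawn up with earlier results of these arrays known, 7 rose and 0 fell, beside 0.858% and 0.16% of all genes (3 to 8 called when 1 array was left out), with a median log2 change of 1.04. In 13 of the 25 all tumours lay above all controls, beside 5.63% of all genes. Among the 7 were Meg3, an imprinted noncoding RNA, at 9.79 ± 0.52 in HCC and 7.20 ± 0.19 in control liver, and Cd24a, a surface glycoprotein of progenitor cells, at 10.95 ± 0.99 in HCC and 8.02 ± 0.43 in control liver (SD, n = 5 and 4; limma adjusted p = 0.00561 and 0.0347). Akr1c18, an aldo-keto reductase that acts on progesterone, had the largest rise, with 10.93 ± 1.15 in HCC and 5.25 ± 0.37 in control liver (limma adjusted p = 0.00561). Scd2, a fatty acid desaturase (log2 change 3.20, adjusted p = 0.00729), Lpl, lipoprotein lipase (3.42, 0.00748), and Sox9, a progenitor and bile duct factor (2.15, 0.0228), rose as well. The largest fall in mean was of Akr1b8 (-0.39, adjusted p = 0.462). The calls of Cd24a, Sox9 and Lpl were each lost in at least 1 comparison that left out 1 array (limma adjusted p up to 0.132, 0.103 and 0.0504). The difference between this list and the 7 markers was not tested. Of 24 measured other serum and tissue markers of HCC 0 passed in limma (10 at an unadjusted p below 0.05, beside 20.4% of all genes; median log2 change 0.05). That count was 0 to 6 when 1 array was left out. It was 3 with array weights, 5 with the replicate block and 3 with the Xist covariate. Lcn2, encoding the secreted lipocalin 2, had the largest rise in mean (10.75 ± 1.55 in HCC and 8.72 ± 1.64 in control liver, adjusted p = 0.258), and Igf1, the liver-derived growth factor, the largest fall (10.66 ± 0.90 in HCC and 12.19 ± 0.09 in control liver, adjusted p = 0.101). Igf1 lay below all controls on all 5 tumours, with a limma adjusted p between 0.0162 and 0.223 when 1 array was left out.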

How the data were processed

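The deposited table gives the authors' intensity of each probe set in linear units, which RMA produced according to the submitters' processing notes; GenePattern and R are named in the design text, without versions. It held 35512 probe sets for 9 samples. Values were turned into log2 without a pseudocount. The platform annotation names 1 gene for 21789 probe sets, several for 1621 and none for 12102; 21698 of the first kind match RefSeq (GRCm38.p6), used for names and neighbours only. For 999 genes with more than 1 probe set the one with the highest mean was kept, leaving 19938 genes. Listed genes without their own probe set were not analysed here.

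Groups were compared in limma 3.58.1 (lmFit, eBayes; R 4.3.3), two-sided, with Benjamini-Hochberg adjustment over all genes at 0.05, after the fit had been tested on simulated data. Single genes were also tested by exact two-sided permutation over 126 splits. Tables and plots used Python 3.11.15, pandas 2.3.3, numpy 2.4.6 and matplotlib 3.10.9. The number of arrays limits the precision.

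The members and gene lists were chosen with earlier results of these data known. Named genes were the members, up to 6 called genes of each list, its largest rise and fall, and relatives of members; exceptions are stated. Alternatives were quantile normalisation, median subtraction, a filter on dim genes, other probe set rules, trended and robust variances, array weights, a replicate block, Xist as a term, and leaving out single arrays.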

Additional observations from a re-analysis of the deposited data

Results flagged for a closer look

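Within the HCC or control group, the highest or lowest array was compared with the others by its gap to the nearest array over the whole range, for 41 genes in 82 groups. By chance about 1 in 20 groups is picked out, and 5 values were. Gpc3 was 10.48 on HCC array 1, with 6.18 to 7.02 on the other tumours. Mdk was 9.05 on HCC array 1, with 7.61 to 7.94 on the other tumours. Muc1 was 8.28 on HCC array 2, with 5.39 to 5.81 on the other tumours. Tff2 was 7.15 on HCC array 1, with 6.83 on the other tumours, and 6.46 on control array 2, with 6.83 to 6.87 on the other controls. Ly6d was not picked out, since a pair of tumours shared its high level.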

How the results depend on the processing

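No member passed under any of the 18 limma alternatives that held it (the filter on dim genes removed Golm1 and Lin28b). The direction changed in 1 of 124 values, that of Afp without HCC array 1 (-0.07, also in the permutation comparison; -0.07 to 0.43 when any 1 array was left out). The lowest adjusted p of Mdk in limma was 0.0669, with array weights. Its exact permutation p of 0.0238, unadjusted, belongs to the log2 change of 0.80. Leaving out 1 array gave changes of 0.53 to 0.89 and p between 0.0286 and 0.0714, the highest without control array 1, 2 or 3. With array weights the change of Gpc3 was 0.62 and that of Ly6d 1.33. The change of Lin28a turned to 0.04 and 0.03 without control arrays 3 and 4, and to 0.03 without HCC array 1 (-0.07 to 0.04 over the arrays left out).

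Genes higher and lower in HCC numbered 285 and 93 among genes above the median level, 503 and 246 with array weights, and 151 and 49 after quantile normalisation. Leaving out 1 array gave 10 to 631 higher and 0 to 556 lower. The most were called without HCC array 5, and the fewest higher genes without control array 3. The cause was not tested. With the replicate number as a block the counts were 259 and 220, and no member passed. That fit also drops HCC array 5 from the comparison, since no control has its number, and leaving out HCC array 5 alone gave 631 and 556. Arrays with the same number did not all deviate together (correlations of 0.32 for number 2 and -0.08 to 0.00 for the others), and not every array correlated best with its own number, so the numbers were not taken to pair the samples. A block by slide or scan was not run, because the table gives neither. Detection calls were not used, which limits what the low values of Lin28b show.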
